A study of Mus musculus with 6 samples.

Results

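The 9 genes described here encode the enzymes with which the gut epithelium makes reactive oxygen and nitric oxide, and the partner proteins of these enzymes. They are the dual oxidases Duox2 and Duox1 with their maturation factors Duoxa2 and Duoxa1, the oxidase Nox1 with its partners Noxa1, Noxo1 and Cyba, and the inducible nitric oxide synthase Nos2. The genes were listed by name, and each was read from the probe set (the group of array probes that reports a gene) that named it alone. Probe sets are chosen by their mean over all 6 arrays, the highest being kept, which makes no use of the groups. Each of the 9 genes had 1 such probe set, and these means ran from 5.35 for Duox1 to 10.1 for Duox2 (log2 expression). They are 9 of 19938 genes with a probe set of their own.

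Each of 6 samples of sorted colonic epithelial cells was read on an Affymetrix array of its own. The cells were positive for EpCAM and negative for CD45, a surface protein of leukocytes whose gene is Ptprc. All mice were male wild-type BALB/c, 6 weeks old, and went without food for 36 h before 24 h of renewed feeding, so both groups share the fast. In 3 samples the mice had no further treatment (re-fed), and in 3 they received antibiotics while they ate again. The labels do not name the drugs. Samples of a group are labelled as biological replicates, the number of mice behind each is not stated, and p-values measure the spread between these samples.

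Dual oxidases sit in the apical membrane of epithelial cells and release hydrogen peroxide into the gut lumen, and a DUOX protein leaves the endoplasmic reticulum as an active enzyme only with its maturation factor. DUOX2 with DUOXA2 is the main pair of the intestine and is known to be induced by gut microbes. NOX1, the superoxide-forming oxidase of the colon, sits in the membrane with p22phox, the product of Cyba, and is switched on by the organizer NOXO1, the activator NOXA1 and the GTPase RAC1. NOS2 makes nitric oxide from arginine and is transcribed on microbial and cytokine signals in epithelial cells and macrophages.

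Duox2 and Duoxa2 are neighbours on mouse chromosome 2 and are read away from each other, with 672 bases between their start sites in RefSeq's GRCm38.p6. Duoxa1 and Duox1 form a like pair on the same chromosome, with 1941 bases between the starts. The windows from 250 bases before to 50 bases after the start of Duox2 and Duoxa2 are shown because these neighbours had differences of unlike size, and that of Nox1 because it lay on the opposite side. They are RefSeq sequences written 5′ to 3′ along each gene, and capitals mark motif matches.
Duox2 (chr2:122298178-122298477, minus strand): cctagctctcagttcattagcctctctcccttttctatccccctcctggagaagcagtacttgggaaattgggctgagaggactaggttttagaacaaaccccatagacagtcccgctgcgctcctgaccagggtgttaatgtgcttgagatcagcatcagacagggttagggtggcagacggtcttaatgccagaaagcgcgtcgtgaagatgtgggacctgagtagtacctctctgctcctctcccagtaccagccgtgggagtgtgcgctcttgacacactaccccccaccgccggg
Duoxa2 (chr2:122298650-122298949, plus strand): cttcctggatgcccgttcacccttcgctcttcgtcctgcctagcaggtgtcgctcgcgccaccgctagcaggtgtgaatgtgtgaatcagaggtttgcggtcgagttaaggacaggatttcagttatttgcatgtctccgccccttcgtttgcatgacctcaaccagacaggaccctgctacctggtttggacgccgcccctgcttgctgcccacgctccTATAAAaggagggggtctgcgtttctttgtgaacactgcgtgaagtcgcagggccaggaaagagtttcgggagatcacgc
Nox1 (chrX:134111805-134112104, minus strand): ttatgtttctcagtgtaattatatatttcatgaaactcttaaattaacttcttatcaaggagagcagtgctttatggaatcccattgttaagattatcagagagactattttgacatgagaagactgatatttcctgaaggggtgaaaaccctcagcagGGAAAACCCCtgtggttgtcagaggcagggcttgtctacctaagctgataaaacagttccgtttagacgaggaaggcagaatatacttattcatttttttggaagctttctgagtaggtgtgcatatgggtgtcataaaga
The windows of the 8 members with an entry in the promoter table were searched on both strands for the NF-kB motif, the STAT motif TTCNNNGAA, the IRF element and, added after the sequences had been read, the TATA box TATAAA. The windows of Duox2, Duox1, Duoxa1, Noxo1 and Cyba held none of these motifs. The window of Duoxa2 held TATAAA from 30 to 25 bases before the start, a motif found in 13.6% of all 32851 promoter windows. The window of Nox1 held an NF-kB match on the opposite strand, from 91 to 82 bases before the start, and that of Noxa1 held a match from 249 to 240 bases before the start that reads as NF-kB on both strands. Of all windows, 8.46% held an NF-kB match, 8.3% a STAT match and 3.44% an IRF match. A match describes the letters alone.

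Values are log2 expression after quantile normalisation, which gives all arrays the same distribution of values. Genes whose mean lay under 5.81, the 40th percentile of probe sets with a gene, were called dim and not tested, and 12071 genes remained. As deposited, any pair among antibiotics replicates 1 and 2 and re-fed replicates 2 and 3 had 372 to 435 identical numbers in common, whereas pairs that include re-fed replicate 1 or antibiotics replicate 3 had 42 to 198. These former 4 arrays were taken from this as normalised together, are called the common run, and give a second value beside the one over 6 arrays. Antibiotics replicate 3 stood apart further, with 10829 distinct deposited values against at least 34568 on each other array, the lowest median (5.63) and the lowest mean correlation with the other arrays after normalisation (0.985, against 0.988 to 0.991). Epcam lay between 12.08 and 12.29 on every array, and Ptprc lay under the floor, between 5.30 and 5.54. All 12 markers of epithelium were above the floor, and their summed signal (linear scale) was 72319 to 73542 in re-fed and 65827 to 67077 in antibiotics samples. The markers did not move alike. Their log2 differences (antibiotics minus re-fed) ran from -0.59 for Krt18 to 0.33 for Cdx1, with 10 below and 2 above 0. Epcam differed by -0.036 and Cdh1 by -0.034. In bulk samples, fewer cells of a type and less RNA per cell cannot be told apart.

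Antibiotics samples had less Duoxa2 and Nos2 signal and more Nox1 signal on average than re-fed samples, while Duox2 differed little. Of the 9 members, 8 were tested, and 0 passed limma's test over 6 arrays at a Benjamini-Hochberg adjusted p under 0.05. Over all genes 0.058% passed. At an unadjusted p under 0.05 there were 3 members, Duoxa2, Nox1 and Noxo1, where 12.6% of all genes had such a p. That number was 1 without antibiotics replicate 3, 4 without re-fed replicate 1 or antibiotics replicate 2, and 2 without any 1 of the other arrays. The tested members split evenly, 4 above and 4 below 0. Within the common run 1 member passed, Duoxa2, where 0.447% of all genes passed. The groups of 5 of the 8 did not overlap in that run, which held for 50.6% of all genes.

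**Figure D1:**
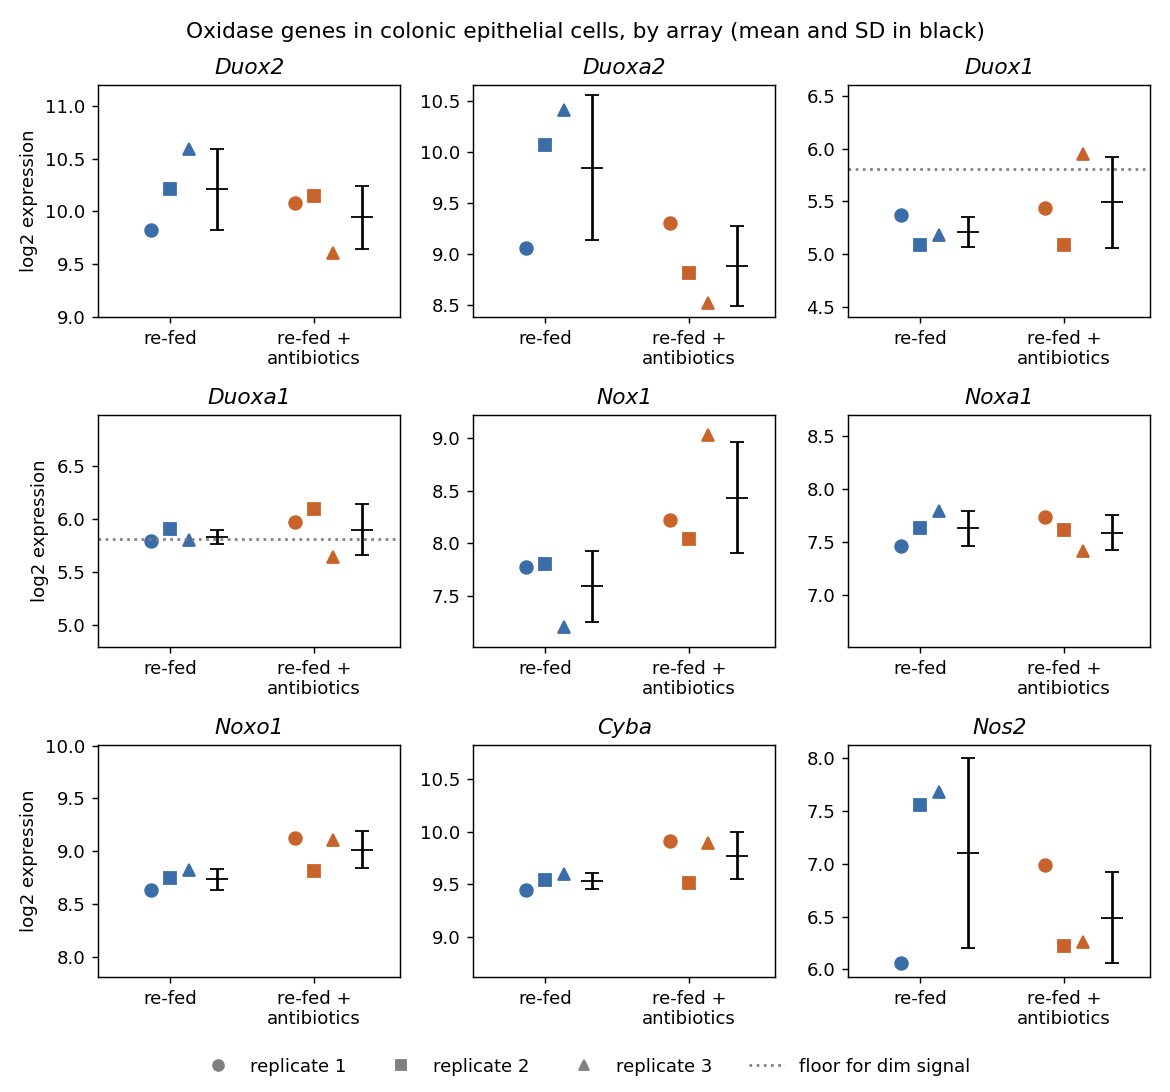
Log2 expression (vertical axes, scale set per panel) of the 9 oxidase genes on each array, blue for re-fed and orange for re-fed plus antibiotics, with marker shapes for replicate numbers and the mean and SD (n = 3) in black. Nox1 is the 1 gene whose groups do not overlap, and in Duoxa2 and Nos2 re-fed replicate 1 lies below antibiotics replicate 1. The dotted line marks the floor for dim signal at 5.81.

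Duoxa2 encodes the maturation factor of DUOX2. It stood at 9.06, 10.08 and 10.42 in re-fed replicates 1 to 3 and at 9.30, 8.82 and 8.52 in antibiotics replicates 1 to 3. Re-fed replicates 2 and 3 were the highest of all arrays, and re-fed replicate 1 lay under antibiotics replicate 1, so the groups overlapped. The means were 9.85 ± 0.71 and 8.88 ± 0.40 (SD, n = 3 per group), a difference of -0.97 (antibiotics minus re-fed, SE 0.32, 95% interval -1.69 to -0.25), or a 1.96-fold lower level. It did not pass over all genes (limma, adjusted p = 0.281). Within the common run Duoxa2 fell by 1.18 (SE 0.18, adjusted p = 0.0467), a 2.27-fold lower level. That run leaves out re-fed replicate 1, the re-fed sample among the antibiotics values, and antibiotics replicate 3, the lowest of all arrays. It is thus no independent check of the value over 6 arrays. Without re-fed replicate 1 alone the difference was -1.36 (adjusted p = 0.0991), and without antibiotics replicate 3 alone it was -0.79. Duoxa2 also passed with the deposited scaling (-1.16, adjusted p = 0.00842) and with array weights (-0.87, adjusted p = 0.0373). With the deposited scaling every tested member had the same SE, 0.268, so that p does not measure the spread of Duoxa2 itself. The median difference of all genes was -0.12 there. Over all genes 45 passed with the deposited scaling, 54 in the common run and 1169 with array weights, against 7 in the main test.

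Duox2, the oxidase that Duoxa2 serves, stood at 9.82, 10.21 and 10.59 in the re-fed samples and at 10.08, 10.15 and 9.60 in the antibiotics samples. The highest arrays were again re-fed replicates 2 and 3, but the 6 values lay within a range of 0.99 and the groups overlapped. The difference was -0.27 (SE 0.21, 95% interval -0.73 to 0.20, limma adjusted p = 0.621), and -0.29 in the common run (95% interval -0.61 to 0.033, adjusted p = 0.331). Both intervals include 0, and the estimates for Duoxa2, -0.97 and -1.18, lie outside both. The estimate for Duoxa2 has its own error. Over 6 arrays its interval, -1.69 to -0.25, includes the Duox2 difference of -0.27. In the common run its interval, -1.60 to -0.77, does not include -0.29. Whether the neighbours differ from each other was not tested. The Duox2 difference was -0.45 with deposited and -0.42 with median scaling. Leaving out 1 array gave differences from -0.46 to -0.074, the last without re-fed replicate 3.

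The neighbouring genes were also set against each other within each array, a description chosen after the values had been seen and given with no test. The log2 ratio of the Duox2 to the Duoxa2 probe set has no meaning as a level, since the probes differ, so only its differences between samples are read. It was 0.77, 0.14 and 0.17 in the re-fed samples and 0.77, 1.33 and 1.08 in the antibiotics samples. Re-fed replicate 1 and antibiotics replicate 1 were nearly equal, and the other antibiotics samples lay above every re-fed sample. The mean ratio was higher with antibiotics by 0.70, and by 0.90 in the common run.

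The second dual oxidase pair was weak in these cells. Duox1 averaged 5.35, under the floor, with 5.09 to 5.37 in re-fed and 5.09 to 5.95 in antibiotics samples, and it was not tested. Its single value above the floor came from antibiotics replicate 3. Duoxa1, the maturation factor of DUOX1, averaged 5.87, just above the floor, with 5.79 to 5.91 in re-fed and 5.64 to 6.10 in antibiotics samples. Its groups overlapped, with a difference of 0.069 (95% interval -0.23 to 0.36, limma adjusted p = 0.865) and 0.18 in the common run (adjusted p = 0.425). Duox1 and Duox2 are paralogs, and a probe's share of signal from the other gene was not analysed here.

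Nox1, the catalytic subunit of the colonic superoxide-forming oxidase, lay on the opposite side. It stood at 7.77, 7.81 and 7.21 in re-fed replicates 1 to 3 and at 8.22, 8.04 and 9.03 in antibiotics replicates 1 to 3. All antibiotics samples lay above all re-fed samples by a gap of 0.24, and antibiotics replicate 3 was the highest. Groups that do not overlap were found for 19.6% of all genes, so 1 member in 8 is no more than the background. The means were 7.59 ± 0.34 and 8.43 ± 0.52 (SD, n = 3 per group), a difference of 0.84 (SE 0.25, 95% interval 0.27 to 1.41), or a 1.79-fold higher level. It did not pass over all genes (limma, adjusted p = 0.254), and neither did the difference of 0.63 in the common run (95% interval 0.20 to 1.06, adjusted p = 0.168). With array weights it passed (0.66, adjusted p = 0.0401), a setting in which 1169 genes passed, against 7 in the main test. Without antibiotics replicate 3 the difference was 0.54 (adjusted p = 0.267).

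The partners of NOX1 differed by less. Noxo1, the organizer, stood at 8.63, 8.75 and 8.82 in re-fed and at 9.12, 8.81 and 9.10 in antibiotics samples. Antibiotics replicate 2 lay just inside the re-fed values, and the others lay above them. The difference was 0.28 (SE 0.12, limma adjusted p = 0.376), and 0.18 in the common run (adjusted p = 0.491). It was 0.078 with deposited and 0.12 with median scaling. Cyba, the membrane partner that NOX1 shares with other NADPH oxidases, stood at 9.45, 9.54 and 9.59 in re-fed and at 9.91, 9.51 and 9.89 in antibiotics samples. Here too antibiotics replicate 2 lay among the re-fed samples, with a difference of 0.24 (SE 0.13, adjusted p = 0.465) and 0.14 in the common run (adjusted p = 0.636). Cyba differed by 0.066 with deposited and by 0.10 with median scaling. Noxa1, the activator, ranged from 7.41 to 7.80 over all arrays, with overlapping groups and a difference of -0.041 (95% interval -0.33 to 0.25, adjusted p = 0.919) and of -0.036 in the common run (adjusted p = 0.891).

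**Figure D2:**
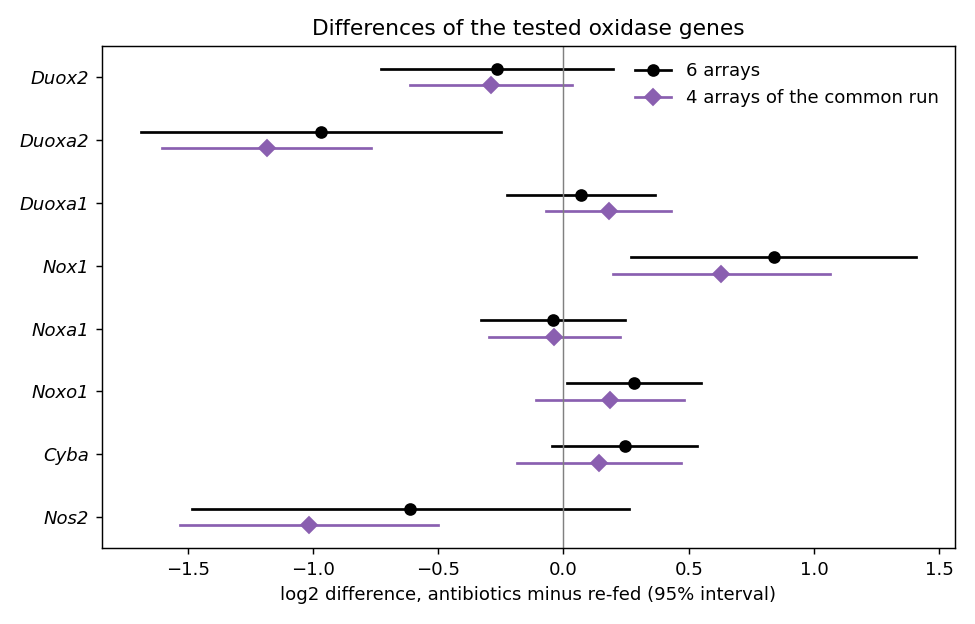
Log2 difference, antibiotics minus re-fed, with 95% intervals from limma for the 8 tested oxidase genes, over 6 arrays (black circles) and within the 4 arrays of the common run (purple diamonds). The intervals of Duoxa2 (-1.69 to -0.25 over 6 arrays) and Nox1 (0.27 to 1.41) lie on opposite sides of 0. The interval of Nos2 includes 0 over 6 arrays and not within the common run.

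Nos2 had the widest spread among re-fed samples of the 9 genes. It stood at 6.06, 7.56 and 7.68 in re-fed replicates 1 to 3 and at 6.99, 6.22 and 6.26 in antibiotics replicates 1 to 3. Re-fed replicate 1 was the lowest of all arrays and the other re-fed samples were the highest, so the groups overlapped through 1 sample. The means were 7.10 ± 0.90 and 6.49 ± 0.43 (SD, n = 3 per group), a difference of -0.61 (SE 0.39, 95% interval -1.48 to 0.26, limma adjusted p = 0.547). Within the common run the difference was -1.02 (95% interval -1.53 to -0.50), a 2.02-fold lower level, which did not pass over all genes (adjusted p = 0.095). The sample through which the groups overlapped, re-fed replicate 1, is not part of that run. Without re-fed replicate 1 it was -1.13 (adjusted p = 0.156), and without re-fed replicate 2 or 3 it was -0.38 or -0.32.

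**Figure D3:**
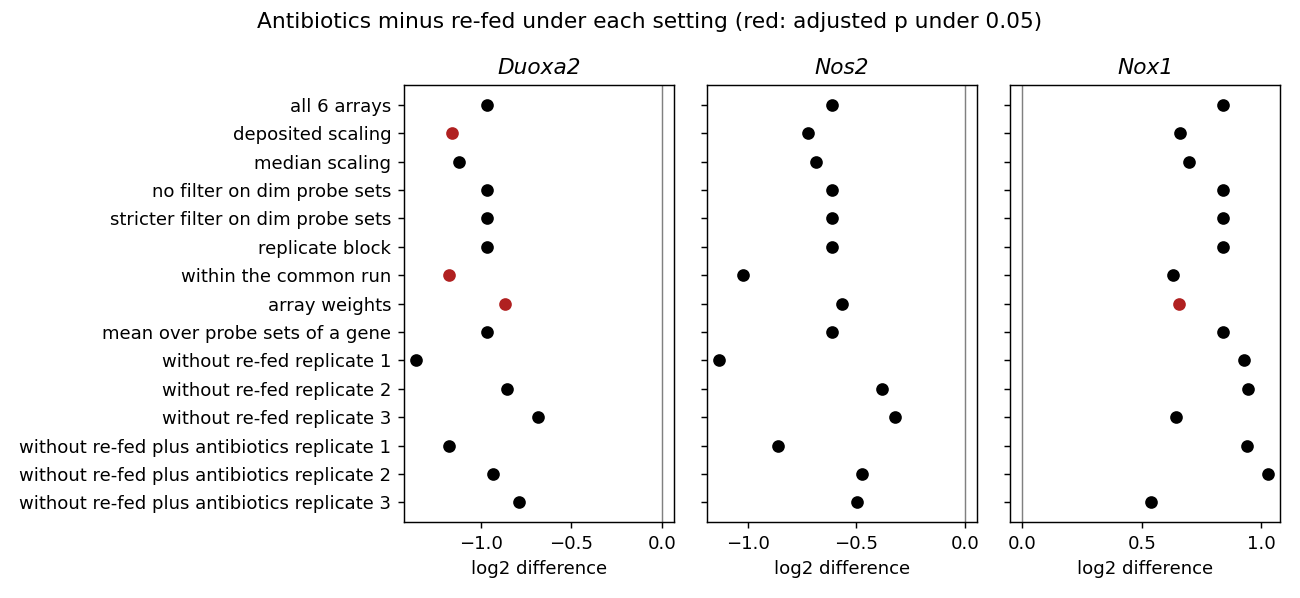
Log2 difference, antibiotics minus re-fed (horizontal axes, scale set per panel), of Duoxa2, Nos2 and Nox1 under each setting, 1 point per setting and red where the adjusted p was under 0.05. Duoxa2 stays below 0 in every setting shown, from -1.36 to -0.69, and is red in 3 of them. Nos2 moves from -1.13 without re-fed replicate 1 to -0.32 without re-fed replicate 3, and Nox1 from 0.54 to 1.03.

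Macrophages also express Nos2, and markers of other cells were read beside it. Of 15 markers of macrophages and neutrophils, 2 (Cd14 and Cd68) were above the floor, and Lyz2, Adgre1, Csf1r and Cybb were under it. The summed signal of the 15 (linear scale) was 739 to 866 in re-fed and 791 to 891 in antibiotics samples, so the ranges overlapped. Re-fed replicate 1, the lowest in Nos2, also had the lowest sum, while antibiotics replicate 2, the next lowest in Nos2, had the highest. The arrays ranked in the sum as they did in Cd14 alone, which ran from 7.46 to 8.19. Cd68 ranked otherwise, with its lowest value in antibiotics replicate 1, and the other markers were dim. The sum therefore does not measure how many of these cells a sample held. The part of these cells in the Nos2 values was not tested. Cybb, the catalytic subunit of the phagocyte oxidase, lay between 4.51 and 4.77 on every array. The other nitric oxide synthases, the neuronal Nos1 and the endothelial Nos3, were dim, at 5.43 to 5.96 and at 5.53 to 6.04.

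Genes whose profile over the 6 arrays lay closest to that of Nox1 or Nos2 were found by the root mean square difference between deviations from each gene's own mean. This was done for tested catalytic members with a range of at least 1. Duox2 fell just short of that range. Among 12071 genes the closest to Nos2 was Plet1, which encodes a surface glycoprotein of epithelia, at 0.20, and the second was Duoxa2, at 0.25. The third was the carboxylesterase gene Ces1f, at 0.26, where the median gene lay at 0.67. All 3 were highest in re-fed replicates 2 and 3, as Nos2 was, which follows from their choice by profile over these same arrays. Plet1 stood at 7.76, 8.91 and 9.45 in re-fed and at 8.30, 7.96 and 7.67 in antibiotics samples (difference -0.73, limma adjusted p = 0.442).

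The closest to Nox1 was Gpx2, the glutathione peroxidase of the gastrointestinal epithelium, at 0.14, where the median gene lay at 0.58. Gpx2 stood at 10.21, 9.91 and 9.32 in re-fed and at 10.58, 10.16 and 11.11 in antibiotics samples (difference 0.80, SE 0.26, limma adjusted p = 0.281). Next came Slc12a2, the basolateral sodium-potassium-chloride cotransporter of secreting epithelia, at 0.17, and Stmn1, which destabilises microtubules and is abundant in dividing cells, at 0.19. All 3 were highest in antibiotics replicate 3 and lowest in re-fed replicate 3, as Nox1 was, which again follows from the choice. These distances describe 6 arrays, 2 of which lie outside the common run.

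Markers of dividing and crypt-base cells were highest in the array with the most Nox1. Their summed signal (7 genes, 5 of them above the floor, linear scale) was 2390 in antibiotics replicate 3, against 1617 and 1688 in the other antibiotics samples and 1433 to 1684 in re-fed samples. Mki67, a marker of dividing cells, stood at 8.84 there and at 7.56 to 8.10 on the other arrays. The 5 tested markers had a median difference of 0.27, with 4 above and 1 below 0, and of 0.11 in the common run, with 3 above and 2 below. The 8 markers of surface colonocytes were all above the floor, with a summed signal of 71913 to 76327 in re-fed and 67338 to 74588 in antibiotics samples and a median difference of -0.036. The part of these cells in the Nox1 difference was not tested.

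Genes that supply or limit NOS2 went both ways. Of 19 genes of arginine and nitric oxide handling, 18 had a probe set of their own, 11 were tested, and 0 passed over 6 arrays, with a median difference of -0.084, beside 0.0033 over all genes. Gch1, the first enzyme of the synthesis of tetrahydrobiopterin, a cofactor that nitric oxide synthases need, stood at 6.65, 6.73 and 6.86 in re-fed and at 6.06, 6.13 and 5.90 in antibiotics samples. The groups did not overlap, and re-fed replicate 1 lay with the other re-fed samples, unlike in Nos2. The difference was -0.71 (SE 0.11, limma adjusted p = 0.0692), a 1.64-fold lower level, and within the common run Gch1 fell by 0.70 (adjusted p = 0.0467). Ddah1, which degrades methylarginines that inhibit nitric oxide synthases, differed by -0.75 (SE 0.19, adjusted p = 0.195). Spr, the last enzyme of tetrahydrobiopterin synthesis, differed by 0.49 (SE 0.12, adjusted p = 0.162) in the opposite direction.

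Of 28 genes that remove peroxide and superoxide or use peroxide, 18 were tested and 0 passed. Their median difference was 0.065, with 15 above and 3 below 0, where all genes split into 6124 above and 5947 below. In the common run the same genes split evenly, 9 above and 9 below 0, with a median of 0.024. Besides Gpx2, the glutathione reductase Gsr differed by 0.42 (SE 0.14, limma adjusted p = 0.268), and its groups did not overlap. Aqp8, a channel of surface colonocytes that passes water and hydrogen peroxide, differed by -0.29 (SE 0.097, adjusted p = 0.289). The list of 11 phagocyte and other NADPH oxidase genes had 7 tested and 0 called. In it Rac1, the GTPase that NOX1 needs, lay between 11.61 and 11.99 with a difference of -0.13 (adjusted p = 0.656). Genes of cytosolic subunits of the phagocyte oxidase differed by 0.29 (Ncf1, adjusted p = 0.459) and 0.39 (Ncf4, adjusted p = 0.376), both with overlapping groups. Their re-fed means, 5.72 and 5.73, lay under the floor of 5.81. Both were highest in antibiotics replicate 3 (6.35 and 6.28), and they differed by 0.17 and 0.15 in the common run. Rac2, the GTPase of blood cells, differed by -0.14 (adjusted p = 0.649).

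Receptors and transcription factors known to act upstream of Duox2 and Nos2 showed small differences. Of 31 genes, 25 were tested and 0 passed, with a median of 0.014 and a range from -0.32 to 0.35. Irf1, a transcription factor that acts on Nos2, was lower in every antibiotics sample (-0.32, SE 0.13, limma adjusted p = 0.353). The NF-kB subunits Nfkb2 (0.32, SE 0.11, adjusted p = 0.297) and Relb (0.35, SE 0.15, adjusted p = 0.371) were higher in every antibiotics sample. They were the 3 genes of the list with an unadjusted p under 0.05, where 12.6% of all genes had such a p.

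Of 24 other epithelial defence genes known to respond to microbes, 15 were tested and 1, Retnlb, whose product is a resistin-like protein that goblet cells secrete, fell (-1.83, SE 0.24, limma adjusted p = 0.0441). The median was -0.20, with 8 below and 7 above 0, and -0.018 in the common run with the same split. Retnlb stood at 8.22, 9.13 and 9.25 in re-fed and at 7.09, 6.87 and 7.16 in antibiotics samples. As with Duoxa2, Nos2 and Duox2, re-fed replicate 1 was the lowest re-fed sample, but here it stayed above every antibiotics sample. Il18, an epithelial cytokine, differed by -0.65 (adjusted p = 0.0868) and Ang4, an antimicrobial ribonuclease, by -0.62 (adjusted p = 0.117). The call of Retnlb was lost when dim genes were kept and without any 1 array but re-fed replicate 1. Within the common run Retnlb passed (difference -2.21, SE 0.12, limma adjusted p = 0.00108), at a 4.63-fold lower level.

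**Figure D4:**
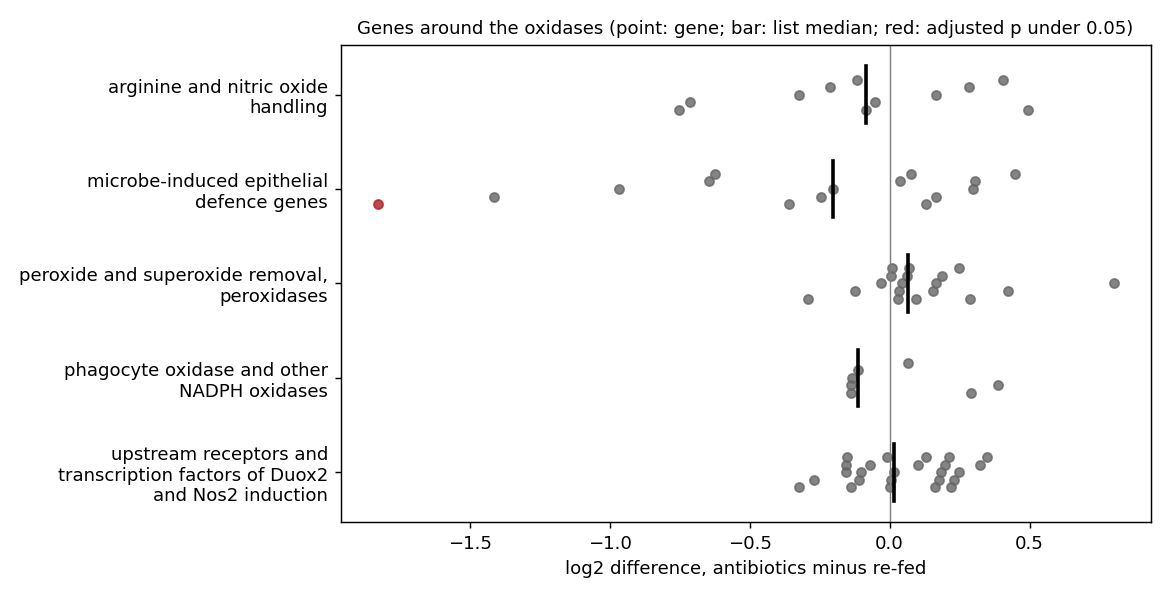
Log2 difference over 6 arrays, antibiotics minus re-fed (horizontal axis), of every tested gene in the 5 lists around the oxidases, with list medians as black bars and genes with an adjusted p under 0.05 in red. Retnlb, at -1.83 in the defence list, is the 1 red point. In the list of peroxide and superoxide removal 15 of 18 genes lie above 0, against 9 of 18 within the common run, which is not drawn.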

How the data were processed

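Total RNA of the sorted cells was labelled as biotinylated cRNA from 6 µg, per the labels' protocols. The authors deposited log2 expression values of 35557 probe sets made with RMA (background correction, normalisation and probe summary), per the submitters' processing notes. Its version is not given in the sources used here. Array medians ran from 5.63 to 6.17, so values were quantile normalised again over the 23410 probe sets with a gene. Of these, 21789 named 1 gene, and the other 12147 probe sets were unnamed here. Per gene, the brightest probe set naming it alone (mean of all arrays) was kept. Genes under the 40th percentile were left out of the tests.

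Groups were taken from the sample titles and compared in R 4.3.3 with limma 3.58.1 (linear model with moderated errors, two-sided, no block, Benjamini-Hochberg adjustment over 12071 genes, threshold 0.05). The procedure was tested on simulated data. The members and lists were chosen with earlier results of these data known. Named were all 9 members, list genes past the threshold, up to 3 per list with the smallest unadjusted p, Epcam, Ptprc and the 3 nearest profiles. Other genes, among them Rac1, Cybb, Nos1, Nos3 and the cell markers, were named after their values were seen. Same-numbered samples did not deviate together (correlations 0.021, -0.034 and -0.23), and the main test did not pair them. With 3 samples per group, these correlations cannot exclude that same-numbered samples were handled together. No array was a copy of another. The number of arrays limits the precision.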

Additional observations from a re-analysis of the deposited data

How the results depend on the processing

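Alternatives covered 14 settings: deposited or median scaling, no filter or a stricter filter (50th percentile) on dim probe sets, a replicate block, the common run, array weights, the mean over probe sets of a gene, and leaving out each array. The median difference of all genes was -0.12 with deposited and -0.08 with median scaling, and differences there are read against it. Duoxa2, Nox1, Noxo1, Cyba, Nos2, Duox2 and Duox1 kept their direction in every setting run. Duoxa2 passed with deposited scaling (-1.16), in the common run (-1.18) and with array weights (-0.87), and Nox1 with array weights (0.66). With deposited scaling all tested members shared an SE of 0.268, so p-values there do not measure a member's own spread. Members called were thus 1 with deposited scaling, 1 in the common run and 2 with array weights, and 0 otherwise. Over all genes 45, 54 and 1169 passed in those settings. Differences near 0 turned for Duoxa1 without antibiotics replicate 2 (-0.029, range over left-out arrays -0.029 to 0.20) and for Noxa1 with array weights (0.036) and without re-fed replicate 3 (0.042) or antibiotics replicate 3 (0.046, range -0.12 to 0.046). Duoxa1 was not tested with the stricter filter. The causes were not tested. Under the replicate block, which changed no call of a member, Duoxa2 differed by -0.97 (adjusted p = 0.398), Nox1 by 0.84 (adjusted p = 0.371) and Nos2 by -0.61 (adjusted p = 0.623), and 7 genes passed.

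Over all genes, 7 passed in limma's test, with 45 under deposited scaling, 62 under median scaling, 2 with no filter, 11 with the stricter filter, 54 in the common run, 1169 with array weights and 0 to 11 without 1 array. Where 0 passed, without antibiotics replicate 1, 1040 genes had an unadjusted p under 0.05. In the defence list 3 genes passed with deposited scaling, 2 with median scaling, 0 with no filter, 7 with array weights and 0 to 1 without 1 array. In the nitric oxide list 1 passed with median scaling, 1 in the common run and 4 with array weights. Array weights called 4 genes of peroxide removal and 2 upstream genes. The number of arrays and dim signal limit what could be seen of Duox1 and Duoxa1.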
